A study of Mus musculus with 6 samples.

Results

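The genes of cholesterol synthesis and of its control by SREBP (sterol regulatory element binding protein) were followed in mouse KP cells with and without an induced hairpin RNA against Npm1. Npm1 encodes nucleophosmin, a protein of the nucleolus that is made in large amounts. The set was a fixed list of 29 genes, found by matching the Ensembl identifiers of the count files to mouse symbols. All 29 were present among 48526 gene identifiers, and all 29 were among the 14531 genes with enough counts to be tested. The list holds 18 enzymes of the pathway, 5 genes of its control, 3 genes of sterol transport inside the cell, and 3 genes of sterol efflux and receptor decay. It does not hold every gene of the pathway.

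The labels name the cells KP and say nothing of their tissue. Epithelial markers such as keratins summed to 11870 to 16560 CPM (counts scaled to a common library size) with doxycycline and 15490 to 17810 CPM without it. Each of 3 stable lines, selected with puromycin, carried a vector that makes 1 of the hairpins shNpm1-3, shNpm1-4 or shNpm1-5 when doxycycline is present. They are called line 3, line 4 and line 5. Each line was sequenced once with 100 ng/ml doxycycline and once without it, so that there were 3 libraries per group, and every library, treated or not, came from cells with a hairpin vector. No library had doxycycline without a hairpin, and an effect of the drug itself cannot be told apart from that of the hairpin. The lines served as the replicates, so each p-value sets the change with doxycycline against how much the lines varied. Libraries held 24391198 to 27341036 counts in genes.

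Cholesterol is made from acetyl-CoA. The early enzymes turn it into mevalonate and then into isoprenoid units, which are joined to squalene, and the later enzymes close the rings of squalene and trim the product to cholesterol. When sterols in the endoplasmic reticulum are scarce, the escort protein SCAP brings SREBP to the Golgi, where it is cut, and the freed part enters the nucleus and turns on genes of synthesis and uptake. INSIG proteins hold SCAP back when sterols are plentiful. Oxysterols then also activate LXR, a nuclear receptor that raises the efflux transporters Abca1 and Abcg1.

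The 250 bases before an annotated start are shown for 4 of the genes because they hold matches to motifs that these regulators and their partner NF-Y are known for. Abca1 is the gene of the list that rose, Srebf1 encodes an SREBP, and Hmgcs1 and Mvd are enzymes. Srebf1 has further annotated starts, whose windows are not shown and held no LXR pair. Sequences are those of RefSeq for GRCm38.p6, the build of the counts (mm10). They run 5′ to 3′ along each gene's own strand and end at position -1, the base before the start. Capitals mark a pair of LXR half-sites in Abca1 and Srebf1, a sterol regulatory element in Hmgcs1, and every CCAAT box, the site of NF-Y, on either strand in Srebf1, Hmgcs1 and Mvd.
Abca1, chr4:53159896-53160145, minus strand: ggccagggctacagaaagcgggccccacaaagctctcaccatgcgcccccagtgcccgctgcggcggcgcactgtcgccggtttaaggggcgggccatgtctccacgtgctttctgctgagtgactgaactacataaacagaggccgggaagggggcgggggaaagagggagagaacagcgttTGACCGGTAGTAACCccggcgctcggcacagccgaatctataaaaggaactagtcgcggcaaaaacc
Srebf1, chr11:60210472-60210721, minus strand: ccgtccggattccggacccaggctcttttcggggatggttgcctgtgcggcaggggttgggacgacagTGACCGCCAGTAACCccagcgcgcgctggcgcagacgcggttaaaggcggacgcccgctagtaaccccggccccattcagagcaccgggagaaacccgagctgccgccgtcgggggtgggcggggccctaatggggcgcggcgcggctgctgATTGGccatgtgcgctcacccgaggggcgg
Hmgcs1, chr13:119690101-119690350, plus strand: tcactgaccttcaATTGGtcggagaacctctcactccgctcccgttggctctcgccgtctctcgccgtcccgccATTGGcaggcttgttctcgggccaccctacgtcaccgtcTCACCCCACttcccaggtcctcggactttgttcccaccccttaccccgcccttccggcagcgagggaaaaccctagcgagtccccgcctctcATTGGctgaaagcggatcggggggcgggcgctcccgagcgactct
Mvd, chr8:122443423-122443672, minus strand: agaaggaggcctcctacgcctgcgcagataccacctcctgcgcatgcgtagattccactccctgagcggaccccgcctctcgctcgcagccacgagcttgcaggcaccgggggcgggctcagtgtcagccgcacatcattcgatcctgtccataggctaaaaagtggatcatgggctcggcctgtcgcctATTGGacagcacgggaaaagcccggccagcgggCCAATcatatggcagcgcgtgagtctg

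The LXR pair was searched as GGTNA, then 5 bases, then GGTCA, on both strands. It stood at positions -67 to -53 in Abca1 and -182 to -168 in Srebf1, in both cases on the strand opposite to the gene, and 0.189% of 27025 genes with a promoter in the RefSeq table held it. The sterol regulatory element, searched as TCACNCCAC, stood at positions -137 to -129 in Hmgcs1. It was found in 1.22% of all genes and in 1 of the 23 listed genes that had an entry. CCAAT was found in 20 of these 23 genes, among them 14 of the 15 enzymes with an entry, and in 37.5% of all genes. The 3 searches did not overlap one another in the windows shown. Fdps, Fdft1, Sqle, Stard4, Npc1 and Abcg1 had no entry. These matches describe letters and were not measured as binding.

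Npm1 was checked first. It had 67.8, 245 and 400 CPM in lines 3, 4 and 5 with doxycycline, against 2002, 1851 and 1924 CPM in the same lines without it. These levels were 3.39%, 13.2% and 20.8% of the untreated ones, lowest in line 3. The fitted log2 fold change was -3.02 with a standard error (SE) of 0.49 and an adjusted p of 0.011 by edgeR's quasi-likelihood test with Benjamini-Hochberg adjustment over all genes tested. Without the untreated library of line 3 the adjusted p was 0.0937, and without line 4 it was 0.177.

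Over the 3 lines together, 1 of the 29 genes passed the test, Abca1, which rose, and 28 did not pass at an adjusted p under 0.05. Among all genes tested 332 passed, or 2.28%, and 0.963% passed as higher. The fitted change lay above 0 for 20 of the 29 genes, with a median log2 fold change of 0.0824 against 0.0031 for all genes. At an unadjusted p under 0.05, 4 of the 29 genes passed, namely Abca1, Acat2, Mylip and Idi1, against 16.3% of all genes. DESeq2 called Abca1 and Acat2, against 4.95% of all genes, and limma-voom called 1 gene, Abca1, against 2.33%. In 2 of the 29 genes, Acat2 and Abca1, the 3 levels with doxycycline all lay above the 3 without it, and groups failed to overlap in 22.6% of all genes. The plot of fitted changes shows that most of the list lies within 2 SE of no change.

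**Figure D1:**
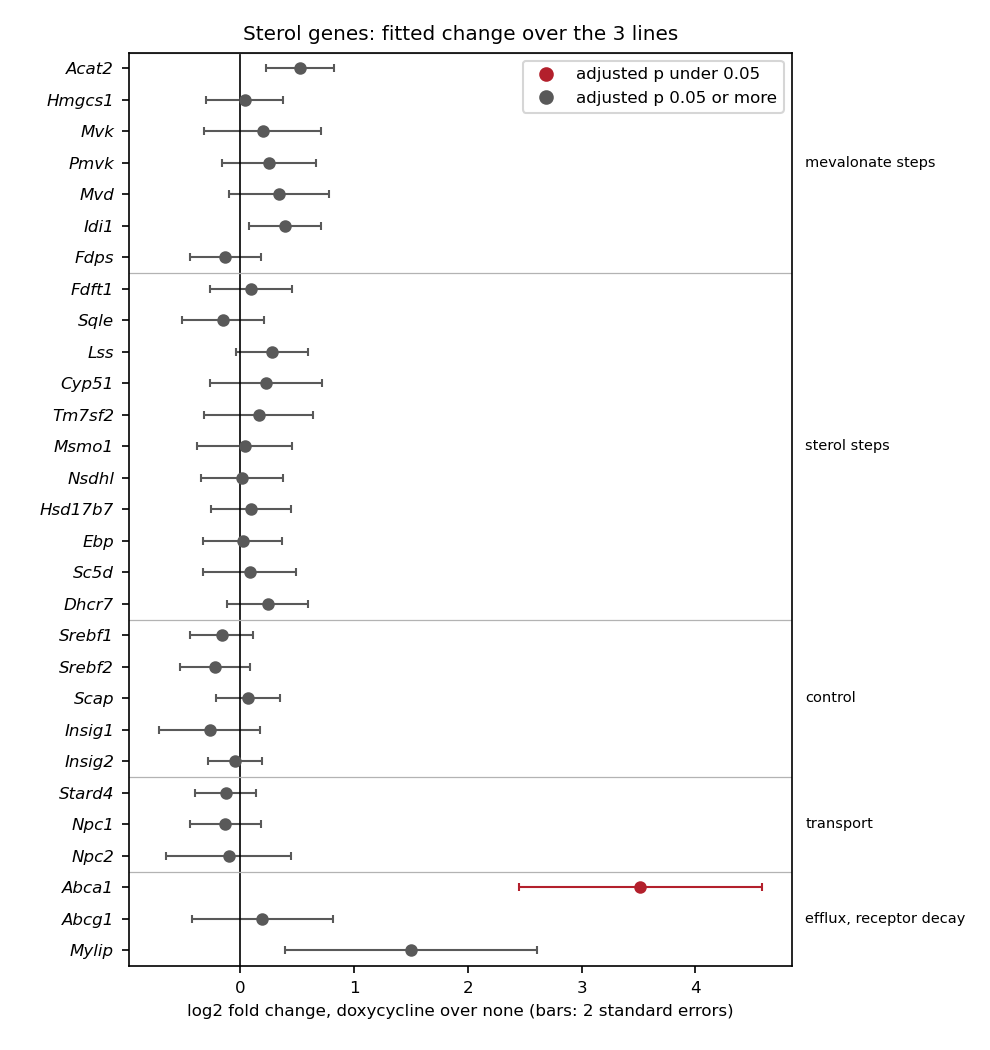
Fitted log2 fold change of each of the 29 genes, doxycycline over none, on the x axis, with bars of 2 SE either side, for 3 libraries per group. Abca1, in red, passed the test at 3.52, and the other 28, in grey, did not.

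Levels differed widely between the genes. Per kilobase of transcript, the mean level with doxycycline was highest for Msmo1 at 266 CPM per kilobase, Npc2 at 233 and Hmgcs1 at 128. It was lowest for Mylip at 0.283 CPM per kilobase, Abcg1 at 0.469 and Abca1 at 0.694. The enzymes lay between 5.39 CPM per kilobase for Hsd17b7 and the level of Msmo1. Each enzyme rested on at least 1406 counts over the 3 libraries of a group, whereas Abca1, Abcg1 and Mylip rested on 24 to 583.

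The ratio of the treated to the untreated level differed between the lines. Within line 3, 10 of the 18 enzymes were at least 1.25-fold higher with doxycycline and 0 were 1.25-fold lower, and 22.7% of all genes were that much higher in line 3. Within line 4, 5 of the 18 were at least 1.25-fold higher and 0 lower, with 24.2% of all genes higher. Within line 5, 1 of the 18, Idi1, was that much higher and 6 were lower, with 21.9% of all genes lower. In the other direction, of 14531 genes 3481 were that much lower in line 3, 3544 lower in line 4 and 2780 higher in line 5. These last counts leave out genes at 0 in either library of the line. The median log2 ratio of the 18 enzymes was 0.37 in line 3, 0.09 in line 4 and -0.23 in line 5. The median of all genes stayed within 0.01 of 0 in each line, where the scaling of libraries (TMM) largely puts it. Scaled by library totals alone, the enzymes had medians of 0.25, 0.22 and -0.15 in lines 3, 4 and 5. All genes then had medians of -0.115, 0.126 and 0.067. Each line has 1 library per condition, so these ratios have no replicate and no test of the difference between lines could be fitted.

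Summed over the 18 enzymes, lines 3, 4 and 5 had 3870, 2904 and 2467 CPM with doxycycline, against 3109, 2673 and 2711 CPM without it. The treated sums ran from high in line 3 to low in line 5 and enclosed the untreated ones, so the groups overlapped. The ratios of the sums were 1.24 in line 3, 1.09 in line 4 and 0.91 in line 5. Msmo1 made up much of each sum, and without it the ratios were 1.27, 1.16 and 0.889. The treated library of line 3 also had the lowest scaling factor (TMM, 0.896) and that of line 4 the highest (1.11). That of line 3 had the fewest counts in genes, 24391198. It also had the most reads aligned to more than 1 place, 37.8%, against 31.4% to 34.6% in the other libraries. Their part in the ratios of line 3 was not tested. Scaled by library totals alone, the ratios of the sums were 1.15, 1.19 and 0.956, so that line 4 then stood above line 3. With offsets for transcript length and GC content they were 1.25, 1.04 and 0.878.

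The ratio in line 3 lay above that in line 5 in 16 of the 18 enzymes, all but Hmgcs1 and Idi1, and in 51.4% of all genes. This count was also 16 under RLE scaling and under library totals alone, and 17 with the offsets. The full order of line 3, line 4 and line 5 from high to low held in 11 of the 18 enzymes and 15 of the 29 genes, and in 17.5% of all genes. With library totals alone the order held in 9 enzymes. The remaining level of Npm1 ran the other way, lowest in line 3 and highest in line 5. With 3 lines no relation between the depth of the knockdown and these ratios can be tested.

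**Figure D2:**
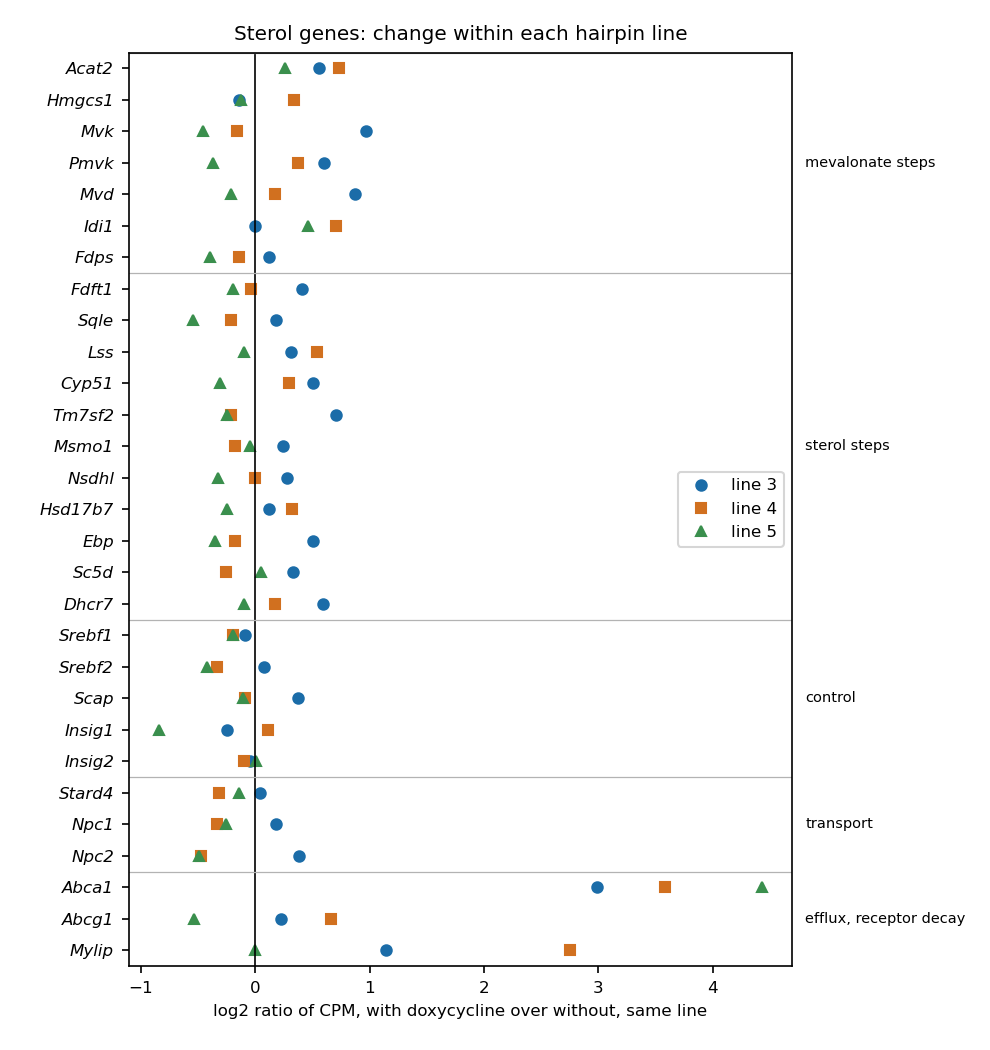
Log2 ratio of CPM, with doxycycline over without, for each of the 29 genes in line 3 (blue circles), line 4 (orange squares) and line 5 (green triangles). In 16 of the 18 enzymes line 3 lies to the right of line 5, and Abca1 lies far to the right in all 3 lines.

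The spread between lines was wider with doxycycline. The standard deviation (SD) of the 3 libraries was larger with doxycycline than without it in 26 of the 29 genes and in 18 of the 18 enzymes, against 73.9% of all genes. The median coefficient of variation of the 29 genes was 27.2% with doxycycline and 8.46% without it. For all genes it was 18.8% and 10.1%. A test of whether the lines differed in level, fitted beside doxycycline, called 0 of 14531 genes (0%) at an adjusted p under 0.05. At an unadjusted p under 0.05 it called 667 genes, 5 of them listed here, while DESeq2 called 16 genes, limma-voom 0, and edgeR with no filter on low counts 240, including Abca1 and Npc2. Differing responses of the lines to doxycycline count as noise in this test, so 0 calls do not show that the lines were alike.

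Of the 7 early enzymes, which lead from acetyl-CoA to farnesyl diphosphate, 0 passed the test, 2 had an unadjusted p under 0.05 (Acat2 and Idi1), and DESeq2 called Acat2. Their median log2 fold change was 0.25. Acat2, the cytosolic thiolase that joins acetyl-CoA units, had 225, 201 and 164 CPM in lines 3, 4 and 5 with doxycycline, against 153, 121 and 136 CPM without it. It was higher in 3 of 3 lines and its groups did not overlap, but the log2 fold change of 0.53 (SE 0.15) had an adjusted p of 0.118. Acat2 shares 97.7% identity over 1477 bases with Acat3, to which 29 to 47 counts per library were assigned. It also shares 98.7% identity over 445 bases with Tcp1, which had 18836 to 25860 counts per library. Since reads aligned to more than 1 place were not counted for any gene, the level of Acat2 is uncertain.

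Hmgcs1 makes HMG-CoA, an early intermediate of the pathway. It had 436, 533 and 358 CPM in lines 3, 4 and 5 with doxycycline, against 481, 422 and 390 CPM without it. Only line 4 was higher, and the groups overlapped, with a log2 fold change of 0.04 (SE 0.17). Hmgcs1 shares 12.1% of its exonic bases with the gene Gm48342 on the other strand, whose reads cannot be told apart.

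Mvk, mevalonate kinase, had 42.6, 23.2 and 19.1 CPM in lines 3, 4 and 5 with doxycycline, against 21.8, 25.9 and 26.2 CPM without it. Line 3 was 1.95-fold higher (95% exact counting interval 1.76 to 2.17), whereas line 5 was at 0.728 of its untreated level (0.648 to 0.819). Pmvk, the next kinase, had 66.3, 59.5 and 35.0 CPM with doxycycline, against 43.6, 46.0 and 45.2 CPM without it. Its untreated lines lay within 1.06-fold of each other, while its treated lines spanned 1.90-fold.

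Mvd, the decarboxylase that makes isopentenyl diphosphate, had 153, 95.5 and 75.5 CPM in lines 3, 4 and 5 with doxycycline, against 83.6, 84.6 and 87.2 CPM without it. Here too line 3 was highest and line 5 lowest of all 6 libraries, with a ratio of 1.83 in line 3 (1.73 to 1.93) and 0.866 in line 5 (0.815 to 0.920). With the offsets for transcript length and GC content the ratio of Mvd in line 5 was 1.01. None of the 3 had an adjusted p under 0.05, with log2 fold changes of 0.20 (SE 0.26) for Mvk, 0.25 (SE 0.21) for Pmvk and 0.34 (SE 0.22) for Mvd.

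Idi1, the isomerase of isopentenyl diphosphate, was, like Hmgcs1, an enzyme whose ratio was not higher in line 3 than in line 5. It had 67.2, 90.8 and 70.1 CPM in lines 3, 4 and 5 with doxycycline, against 67.4, 55.5 and 50.9 CPM without it. Lines 4 and 5 were higher by 1.64-fold and 1.38-fold and line 3 was level, with a log2 fold change of 0.39 (SE 0.16, adjusted p 0.254). Idi1 has a processed pseudogene, Gm13502, identical to it over 684 bases. Fdps, farnesyl diphosphate synthase, had 21.5, 17.4 and 15.7 CPM in lines 3, 4 and 5 with doxycycline, against 19.8, 19.3 and 20.6 CPM without it. It was the early enzyme with a fitted change below 0, at -0.13 (SE 0.16). Fdps shares 26.7% of its exonic bases with Gm43738 on the same strand, the largest such share among the 29 genes.

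Of the 11 later enzymes 0 passed the test, 0 had an unadjusted p under 0.05, and DESeq2 and limma-voom called 0. Their median log2 fold change was 0.09. Squalene is made by Fdft1, which had 248, 166 and 151 CPM in lines 3, 4 and 5 with doxycycline, against 187, 170 and 172 CPM without it. Sqle, which adds oxygen to squalene, had 170, 132 and 97.4 CPM with doxycycline, against 149, 152 and 142 CPM without it. Line 3 was the highest treated line in both, and line 5 the lowest, at 0.684 of its untreated level for Sqle. Fdft1 shares 18.3% of its exonic bases with Ctsb.

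Lss, which closes the rings, had 97.97, 116 and 74.6 CPM in lines 3, 4 and 5 with doxycycline, against 78.8, 79.8 and 79.9 CPM without it. Cyp51, the lanosterol demethylase, had 642, 436 and 294 CPM with doxycycline, against 452, 356 and 365 CPM without it. The treated lines of Cyp51 spanned 2.18-fold and enclosed the untreated ones. Its log2 fold change was 0.23 (SE 0.25, adjusted p 0.709). Tm7sf2, a sterol reductase, had 125, 62.6 and 63.0 CPM with doxycycline, against 76.3, 72.5 and 74.9 CPM without it, so that line 3 alone was above the untreated range and the other lines were below it. Tm7sf2 shares 12.1% of its exonic bases with Vps51.

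Msmo1 and Nsdhl work together to remove the methyl groups of the sterol ring. Msmo1 had 1050, 607 and 712 CPM in lines 3, 4 and 5 with doxycycline, against 889, 685 and 736 CPM without it. Nsdhl had 151, 106 and 90.5 CPM with doxycycline, against 124, 106 and 114 CPM without it. Their fitted changes were 0.04 (SE 0.21) and 0.02 (SE 0.18) on the log2 scale. In both genes line 3 was the highest library of the 6.

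Ebp, which shifts a double bond in the ring, had 132, 93.5 and 81.7 CPM in lines 3, 4 and 5 with doxycycline, against 93.1, 106 and 104 CPM without it. Sc5d, a sterol desaturase, had 176, 95.7 and 121 CPM with doxycycline, against 140, 114 and 116 CPM without it. Dhcr7, the reductase of the last step of one branch, had 40.4, 38.2 and 26.4 CPM with doxycycline, against 26.8, 33.9 and 28.3 CPM without it. All 3 were higher in line 3, by 1.42-fold, 1.25-fold and 1.51-fold. Hsd17b7, which reduces the sterol ketone, had 25.5, 30.2 and 18.8 CPM with doxycycline, against 23.4, 24.2 and 22.3 CPM without it, with its highest level in line 4.

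**Figure D3:**
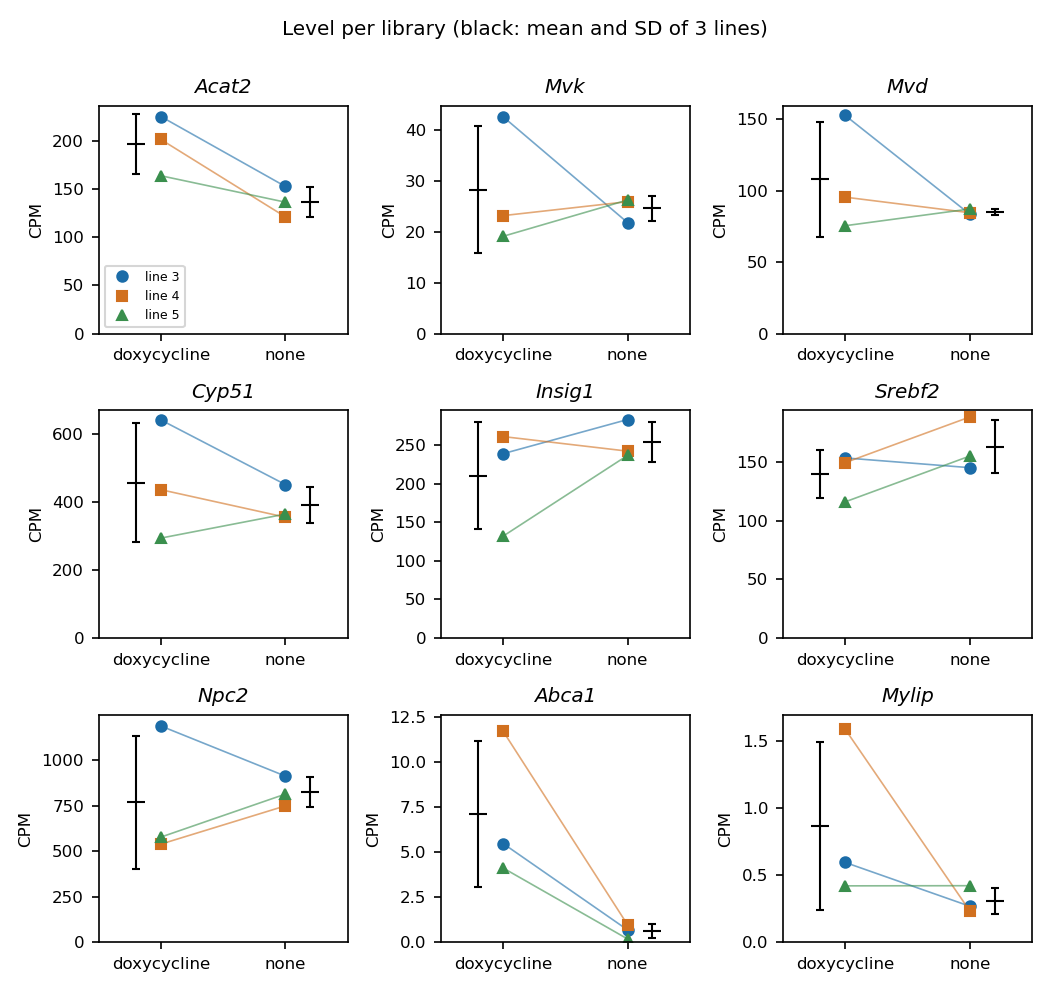
CPM of 9 genes in each library, doxycycline on the left and none on the right, with lines joining the libraries of 1 cell line and black bars giving the mean and SD of 3 libraries. Mvk and Mvd spread out with doxycycline around untreated levels that lie close together, and the 3 treated levels of Abca1 lie above the 3 untreated ones.

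Of the 5 genes that control the pathway 0 passed, 0 had an unadjusted p under 0.05, and DESeq2 and limma-voom called 0. Their median log2 fold change was -0.16. Srebf2, the SREBP best known for sterol synthesis, had 153, 149 and 116 CPM in lines 3, 4 and 5 with doxycycline, against 145, 188 and 155 CPM without it. Srebf1, whose gene makes more than 1 isoform from separate starts that the gene count pools, had 61.4, 74.1 and 69.3 CPM with doxycycline, against 65.3, 84.8 and 79.4 CPM without it. Srebf1 was lower in 3 of 3 lines and Srebf2 in 2 of 3, with log2 fold changes of -0.16 (SE 0.14) and -0.22 (SE 0.15). Both were above 0 with the offsets for transcript length and GC content, at 0.06 and 0.01.

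Insig1, itself a target of SREBP, had 239, 261 and 132 CPM in lines 3, 4 and 5 with doxycycline, against 283, 242 and 237 CPM without it. Line 5 stood apart, at 0.558 of its untreated level (95% exact counting interval 0.535 to 0.582), while lines 3 and 4 were at 0.843 and 1.08. The log2 fold change over the lines was -0.27 (SE 0.22, adjusted p 0.606). Insig2 had 70.0, 61.9 and 63.4 CPM with doxycycline, against 72.4, 66.3 and 63.0 CPM without it, and Scap had 30.5, 25.4 and 24.6 CPM with doxycycline, against 23.6, 27 and 26.5 CPM without it. Intervals of 2 SE ran from -0.29 to 0.19 for Insig2 and from -0.22 to 0.35 for Scap on the log2 scale. Scap shares 13.2% of its exonic bases with 5830462I19Rik.

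The 3 transport genes did not pass either, had no unadjusted p under 0.05, and were called by neither DESeq2 nor limma-voom. Npc2, which hands cholesterol to Npc1 inside the lysosome, had 1186, 539 and 577 CPM in lines 3, 4 and 5 with doxycycline, against 912, 748 and 813 CPM without it. Line 3 was 1.30-fold higher and lines 4 and 5 were at 0.720 and 0.710 of their untreated levels. Without the treated library of line 3 its log2 fold change was -0.56 with an edgeR adjusted p of 0.0147, and with all libraries it was -0.10 (SE 0.27). The fit without that library called 1551 of 14968 genes, against 332 of 14531 with all libraries. Npc1, the lysosomal exporter, had 17.7, 14.7 and 14.1 CPM with doxycycline, against 15.6, 18.5 and 16.9 CPM without it. Stard4, a carrier of sterol between membranes, had 136, 103 and 112 CPM with doxycycline, against 132, 128 and 124 CPM without it. In both genes line 3 was the highest treated line, within 1.14-fold of its untreated level.

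Abca1, which moves cholesterol out of cells onto apolipoproteins, was the gene of the list that rose. It had 5.49, 11.7 and 4.13 CPM in lines 3, 4 and 5 with doxycycline, against 0.693, 0.980 and 0.192 CPM without it. The 3 treated levels lay above the 3 untreated ones, and line 4 was highest in each group. These levels rest on 120, 355 and 108 counts with doxycycline and on 18, 25 and 5 counts without it. The mean was 7.12 ± 4.05 CPM with doxycycline and 0.622 ± 0.399 CPM without it (SD, n = 3 each).

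The log2 fold change of Abca1 was 3.52 (SE 0.53, edgeR adjusted p 0.0077). Within the lines the ratio was 7.93 in line 3 (95% exact counting interval 4.81 to 13.8), 12.0 in line 4 (7.98 to 18.8) and 21.5 in line 5 (8.95 to 67.7). The interval of line 4 overlaps those of lines 3 and 5. An exact two-sided permutation test of the CPM gave p = 0.1, the smallest that 3 libraries against 3 allow. The adjusted p was 0.096 without the untreated library of line 3 and 0.0518 without line 4. Abca1 has a mean below 5 CPM and was not tested when that minimum was set.

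Markers of other cell types moved with Abca1. Of 22 macrophage markers 20 were tested and 16 rose, against 0.963% of all genes, and DESeq2 and limma-voom also called 16 higher. Mrc1, which made up most of the sum in untreated cells, was not among the 16. Its fitted change lay below 0, and it was at least 1.25-fold lower in lines 3 and 4 but higher in line 5. Without Mrc1 the other 21 summed to 298, 459 and 212 CPM in lines 3, 4 and 5 with doxycycline. In the same lines without doxycycline they summed to 57.4, 57.8 and 61.9 CPM. Adgre1, the F4/80 antigen of macrophages, had 8.88, 15.6 and 6.89 CPM with doxycycline, against 0.0385, 0 and 0.0384 CPM without it, and Marco had 0 counts in all 3 treated libraries. A marker near 0 without doxycycline, such as Adgre1, passed the filter on low counts through the treated group only, so it could only rise. With Mrc1 the sums were 458, 688 and 592.5 CPM in lines 3, 4 and 5 with doxycycline. Without doxycycline they were 471, 444 and 410.5 CPM. Line 3 was then at 0.971 of its untreated sum, and the treated sums ran from line 4 through line 5 down to line 3. The order of lines 4, 3 and 5 from high to low that Abca1 had with doxycycline was shared by 12 of the 16 markers that rose, by 47.9% of the 140 genes called higher, and by 12.2% of all genes tested. In total RNA, more cells of a type and more RNA per cell cannot be told apart, and the part of such cells in the rise of Abca1 was not tested.

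Markers of T and NK lymphocytes went the other way. Of 16 listed 13 were tested and 11 fell, against 192 of all 14531 genes, while DESeq2 called 13 lower and limma-voom 12. The 16 summed to 4.21 to 6.68 CPM with doxycycline and 20.6 to 28.1 CPM without it, and 6 were at 0 in all treated libraries. A marker at or near 0 with doxycycline passed the filter on low counts through the untreated group only, so it could only fall. Cd79b, the 1 of 6 B lymphocyte markers that was tested, did not pass, at 0.842 CPM or less in each library. Of 9 fibroblast markers 3 were tested, of which Thy1 alone fell and 2 did not pass. The 9 summed to 1.92 to 6.68 CPM with doxycycline and 6.604 to 7.82 CPM without it. Of 7 endothelial markers 2 were tested and neither passed, with 1 at an unadjusted p under 0.05 and 0 called by DESeq2 or limma-voom, and of 12 epithelial markers 10 were tested and Cldn4 fell.

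**Figure D4:**
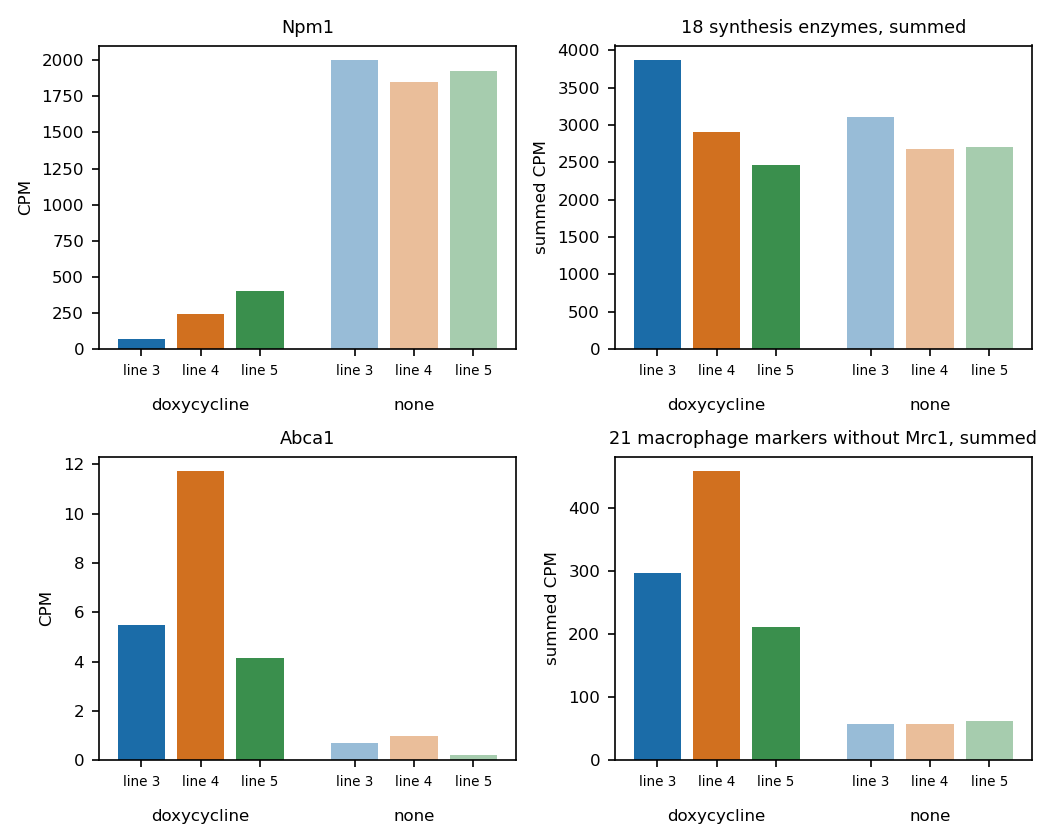
CPM of Npm1, summed CPM of the 18 synthesis enzymes, CPM of Abca1 and summed CPM of 21 macrophage markers without Mrc1, in each of 6 libraries, with full colour for doxycycline and pale colour for none. The enzymes step down across the treated lines 3, 4 and 5, whereas Abca1 and the macrophage markers are highest in treated line 4.

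Abcg1 and Mylip, which like Abca1 are known targets of LXR, did not pass. Abcg1, an exporter of cholesterol to lipoprotein particles, had 2.75, 3.73 and 1.72 CPM in lines 3, 4 and 5 with doxycycline, against 2.35, 2.35 and 2.50 CPM without it. Mylip, a ubiquitin ligase that marks lipoprotein receptors for decay, had 0.595, 1.59 and 0.421 CPM with doxycycline, against 0.270, 0.235 and 0.422 CPM without it. Line 4 was the highest library for both, and line 5 was at or below its untreated level. The log2 fold change was 0.19 (SE 0.31) for Abcg1 and 1.501 (SE 0.55, adjusted p 0.211) for Mylip. Mylip rested on 72 counts with doxycycline and 24 without it. Its log2 fold change was 0.70 without the treated library of line 4 and 0.54 without line 4.

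Further LXR targets were read from a second list of 8 genes, of which 2 rose and 0 fell, against 0.963% of all genes called higher. The list was split, with 4 fitted changes above 0 and 4 below, and a median log2 fold change of 0.27. At an unadjusted p under 0.05 by edgeR 4 passed, against 16.3% of all genes, and DESeq2 and limma-voom each called 2 higher. Lpl, the lipase of lipoprotein triglycerides, had 25.7, 49.6 and 17.7 CPM in lines 3, 4 and 5 with doxycycline, against 0.770, 1.10 and 1.38 CPM without it, a log2 fold change of 4.83 (SE 0.41, adjusted p 0.00032). Apoe, an apolipoprotein, had 18.3, 26.9 and 13.6 CPM with doxycycline, against 6.47, 4.78 and 6.22 CPM without it, a log2 fold change of 1.75 (SE 0.25, adjusted p 0.0053). Both showed the order of lines 4, 3 and 5 that Abca1 and the sum of the macrophage markers without Mrc1 had. The LXR genes themselves did not pass, with Nr1h3 at 19.6 ± 5.45 CPM with doxycycline and 14.0 ± 1.75 CPM without it, and Nr1h2 at 44.4 ± 2.24 and 57.4 ± 6.93 CPM (SD, n = 3 each).

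Other genes of sterol control and transport did not pass. Of 14 further control genes, among them the proteases Mbtps1 and Mbtps2 that cut SREBP, 0 passed, with 3 at an unadjusted p under 0.05 and 0 called by DESeq2 or limma-voom, and a median log2 fold change of -0.08. The smallest p belonged to Nr1h2, above, and then to Rxra, the partner of LXR, with 18.8, 14.9 and 18.3 CPM in lines 3, 4 and 5 with doxycycline, against 20.5, 24.1 and 21.6 CPM without it (log2 fold change -0.35, SE 0.15, adjusted p 0.291). Of 18 further transport genes 0 passed, with 7 at an unadjusted p under 0.05, against 16.3% of all genes, and a median of -0.11, and DESeq2 called Gramd1a lower and limma-voom 0. The smallest p there belonged to Gramd1a, a carrier of sterol from the plasma membrane, with 6.36, 6.38 and 4.94 CPM in lines 3, 4 and 5 with doxycycline, against 9.20, 11.4 and 9.52 CPM without it (log2 fold change -0.77, SE 0.19, adjusted p 0.0768). The next belonged to Gramd1c, of the same family, which was higher, with 5.91, 8.29 and 7.89 CPM with doxycycline, against 5.31, 3.80 and 4.42 CPM without it (log2 fold change 0.71, SE 0.22, adjusted p 0.149). Neither gene's groups overlapped, which held for 9 of the 18 transport genes and for 22.6% of all genes. The 18 summed to 1167 to 1343 CPM with doxycycline and 1373 to 1677 CPM without it.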

How the data were processed

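Total RNA of mouse KP cells was sequenced in 6 libraries, 3 lines with and without doxycycline. The authors deposited whole-number counts for each gene, without normalization. The submitters' processing notes name the build mm10 and the tools STAR, HTSeq, Picard, bedtools, CASAVA, DESeq2 and R 3.3.0. For the annotation release and strand setting, the sources used here give nothing, so overlapping genes on opposite strands cannot be told apart. The 5 rows naming no gene, 43.8% to 47.7% of reads, were left out.

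The main test was edgeR 4.0.16 under R 4.3.3. Low genes were removed with filterByExpr, libraries scaled by TMM, and p-values of the quasi-likelihood test adjusted after Benjamini and Hochberg, and DESeq2 1.42.0 and limma 3.58.1 (voom) were alternatives. Alternatives for ratios within a line, and a fit without macrophage and lymphocyte markers, were chosen after seeing the data. Procedures were tested on simulated data. The SE was derived from the fold change and its F statistic, and intervals on ratios are exact at 95% for counting error only. The biological coefficient of variation was 18.0%. A floor of 3 counts was 0.0991 to 0.137 CPM. Lengths and coordinates came from GENCODE, promoters from RefSeq, and copies were sought with blastn 2.17.0.

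The 29 genes and all other lists were chosen with earlier results of these data known. The text names every listed gene, Npm1, and from each further list up to 4 genes that passed or otherwise 2 of smallest p, and gives marker lists by their sums. Nr1h3 was added for its role after its values were seen. Line numbers pair the libraries, since those of 1 number come from the same stable line. Deviations from the group means correlated with r = 0.0048, 0.0674 and 0.0276 within lines 3, 4 and 5. Between treated and untreated libraries of different lines r ran from -0.102 to 0.067. The fit without the block was the main one. Within each group, no 2 libraries were duplicates, since they differed by more than sampling noise.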

Additional observations from a re-analysis of the deposited data

Results flagged for a closer look

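Mvk and Mvd drew attention because doxycycline went with opposite changes in different lines. For Mvk the ratio in line 3 (1.95) divided by that in line 5 (0.728) was 2.683, and for Mvd the ratio in line 3 (1.83) divided by that in line 5 (0.866) was 2.11. For both genes the counting interval of each of these ratios lay wholly on its own side of 1. Each line had 1 library per condition, and the difference between lines was not tested. Scaled by library totals alone, Mvk had ratios of 1.80 in line 3 and 0.765 in line 5, and Mvd 1.69 and 0.910. With offsets for transcript length and GC content, Mvk had ratios of 1.85 in line 3 and 0.832 in line 5, and Mvd 1.62 and 1.01, so that for Mvd line 5 no longer lay below 1.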

How the results depend on the processing

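Over all settings, the 29 log2 fold changes kept their direction and their side of the threshold in 442 comparisons, changed sign in 43, came to pass in 3 and no longer passed in 2. Genes called numbered 332, against 1052 with no filter on low counts, 720 with DESeq2, 49 at a mean of at least 5 CPM, 593 at an adjusted p under 0.10, and 62 (line 4 left out) to 1551 (the treated library of line 3 left out). The replicate block called 243 genes and changed no call among the 29. Listed genes called numbered 2 with no filter and with DESeq2 (Abca1 and Acat2), 0 at 5 CPM, and 0 to 2 with a library or line left out. Genes that differed between lines numbered 240 with no filter, 2 of them listed, and 16 with DESeq2. The log2 fold change of Npm1 ran from -3.63 (line 5 left out) to -2.55 (line 3 left out), and that of Abca1 from 2.94 to 4.00, with an adjusted p of 0.0015 to 0.096 when a library or line was left out.

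Sign changes were all in genes that did not pass in the main test. With the replicate block Nsdhl was at -0.015 and Ebp at -0.0081, and with limma-voom at -0.0166 and -0.0089. With the offsets for transcript length and GC content, Hmgcs1 was at -0.0266, Msmo1 at -0.0254, Nsdhl at -0.10, Ebp at -0.0697, Srebf1 at 0.0579 and Srebf2 at 0.0132. With a library or line left out, the log2 fold change ran from -0.13 to 0.17 for Hmgcs1, -0.30 to 0.45 for Mvk, -0.15 to 0.23 for Fdft1, -0.36 to 0.027 for Sqle, -0.0912 to 0.46 for Cyp51, -0.24 to 0.33 for Tm7sf2, -0.22 to 0.20 for Msmo1, -0.22 to 0.16 for Nsdhl, -0.0748 to 0.26 for Hsd17b7, -0.25 to 0.18 for Ebp, -0.19 to 0.27 for Sc5d, -0.0883 to 0.14 for Scap, -0.10 to 0.0069 for Insig2, -0.56 to 0.10 for Npc2 and -0.13 to 0.46 for Abcg1. The treated library of line 3 moved the list most, since without it 11 of the 29 genes lay above 0, against 20 with it, and the median of the list was -0.0967. The cause was not tested.

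Counts limit the efflux genes most, with 5 counts for Abca1 in the untreated library of line 5, and 1 library per line and condition leaves the ratios within a line without a replicate.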

Other observations

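The branches that leave the pathway were read from lists of their own. Of 11 genes that turn isoprenoids into ubiquinone, dolichol and the lipid anchors of proteins, 0 passed, with 1 at an unadjusted p under 0.05 and 0 called by DESeq2 or limma-voom, and their median log2 fold change was 0.02. The smallest p belonged to Pdss1, a subunit of the enzyme that makes the ubiquinone side chain, which had 9.57, 14.7 and 14.1 CPM in lines 3, 4 and 5 with doxycycline, against 8.51, 7.92 and 8.45 CPM without it. It was higher in 3 of 3 lines, with edgeR giving a log2 fold change of 0.63 (SE 0.20) and an adjusted p of 0.144. Icmt, which methylates prenylated proteins, had 18.7, 16.2 and 22.0 CPM with doxycycline, against 21.2, 26.3 and 24.1 CPM without it, with an edgeR adjusted p of 0.339.

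SREBP proteins are also known to drive fatty acid synthesis. Of 14 lipogenic genes 13 were tested and 0 passed, with 1 at an unadjusted p under 0.05 and 0 called by DESeq2 or limma-voom, and a median log2 fold change of -0.04. Thrsp had too few counts to be tested. Elovl6, an elongase of fatty acids, had 71.6, 125 and 76.3 CPM in lines 3, 4 and 5 with doxycycline, against 64.8, 60.6 and 61.8 CPM without it. Its groups did not overlap, and line 4 was highest, with edgeR giving 0.55 on the log2 scale (SE 0.20) and an adjusted p of 0.203. Groups failed to overlap in 3 of the 13 genes tested, against 22.6% of all genes. Acaca, which makes malonyl-CoA, had 12.1, 14.7 and 16.0 CPM with doxycycline, against 10.6, 12.9 and 10.5 CPM without it, with an edgeR adjusted p of 0.372.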
